A study of Salmo salar with 20 samples.

Results

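Described here are 34 entries of the distal intestine of Atlantic salmon, 23 of which the study grouped as inflammatory mediators and transducers and 11 as dependent on interferon (IFN). They were chosen because they changed in salmon fed pea protein concentrate with saponins (PPC + S). The 2 groups held 36 entries, and each entry was tied to the 1 probe whose fold change and standard error over the 4 PPC + S columns of the authors' processed values matched the listed pair within 0.0051. In this way 34 of the 36 were found among 21322 probes on the array. TNFalpha-induced protein 8-like protein 2 and galectin-3-binding protein each matched 2 probes and were left out. The farthest accepted probe lay 0.005 from its entry, while the nearest probe that was not accepted lay 0.00875 away (median over the 34 entries, 0.0265). Of the inflammatory entries 22 were listed as up-regulated and 1 as down-regulated, and of the IFN-dependent entries 10 as down-regulated and 1 as up-regulated. Gene names are not part of the files, so every name rests on this match alone. By their identifiers 32 of the probes were designed on Atlantic salmon sequences and 2 on rainbow trout sequences.

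Post smolts in seawater tanks were fed for 80 days diets with saponins (2 g/kg) and 1 of 5 plant proteins: pea protein concentrate (PPC + S), corn gluten (CG + S), horse bean meal (HBM + S), rapeseed meal (RSM + S) or sunflower meal (SFM + S). RNA of 4 fish per diet was hybridised to 2-colour oligonucleotide arrays, 1 fish per array and 20 arrays in all, each against 1 pool of RNA from 12 fish on the same plant protein without saponins. The values are log2 ratios of fish over pool after background correction and loess normalization, so that 1 is a doubling and 0 is no difference from the pool. The pool is 1 sample, so the spread between control fish enters no test, the 4 fish came from 2 tanks that the labels do not name, each diet had its own slide, and p-values can be too small. Slide and diet cannot be told apart.

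All 34 entries were among the 17111 probes with enough signal to be tested, and for 29 of them the scanner software put fish and pool well above background on every one of the 20 arrays. In the channels of single arrays 58.5% to 81.6% of probes were well above background, and precision is limited by the number of arrays. The 2 spots of a probe differed by a median of 0.08 to 0.34 log2 for these entries. By the labels each fish carried Cy5 and each pool Cy3. With those dyes arrays 3 and 4 of PPC + S ran against arrays 1 and 2, with Pearson's r of -0.55 to -0.48 across 21235 probes, which are not independent replicates. In the other diets the same pairs had r of -0.10 to 0.14 with CG + S and -0.02 to 0.16 with RSM + S. It was 0.21 to 0.29 with HBM + S and 0.11 to 0.35 with SFM + S. Arrays 3 and 4 of each diet also ran against the authors' processed values, so the ratios of these 10 arrays were turned round, against the dyes given in the labels. Every sign on them, and which channel is the fish, rests on the turning. In HBM + S and SFM + S, unlike PPC + S, the turning set against each other pairs that had run together. With the dyes as stated the values of fish 3 and 4 have the opposite sign in every diet, and the means in PPC + S are given for each entry. In the pool channel, which holds the same RNA on the 4 arrays of a diet, the median SD of the 34 entries was 0.10 in PPC + S after turning and 0.51 with the dyes as stated. It was smaller after turning for 32 of 34 entries in PPC + S, for 26 with CG + S, 22 with HBM + S, 28 with RSM + S and 23 with SFM + S. These SDs were not used to choose the direction. In PPC + S, however, the entries were chosen for a steady ratio in the same values that set it. A smaller SD after turning was thus favoured there in advance. The share over all probes was not counted, so nothing about the direction is read from these counts. Fish are numbered as on the scanned arrays. In PPC + S array 1 matched the authors' column of fish 4 best, and array 4 that of fish 1.

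As background, intestinal inflammation is carried by cytokines and chemokines, their receptors and lipid mediators, and inside the cell by transcription factors such as NF-kappa-B, which also induce their own inhibitors. Interferons act through receptor-bound Jak kinases and induce antiviral proteins together with the MHC class I pathway, in which a polymorphic heavy chain paired with beta-2 microglobulin presents peptides to cytotoxic T cells. The distal intestine of salmonids is the segment where soybean-type enteritis develops.

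In the PPC + S fish the inflammatory entries lay above the pool and the IFN-dependent entries below it, with 1 exception on each list. The 22 inflammatory entries listed up had a median of 1.34, 1.26, 0.72 and 0.77 in fish 1 to 4, and their means lay between 0.61 and 2.47. The 10 IFN-dependent entries listed down had medians of -1.93, -1.98, -0.94 and -0.77, with means between -2.38 and -0.85. The median over the means was 1.06 for the first list and -1.63 for the second, and that of all probes tested was 0. These values chose the entries, so they are a description without a test. By limma 22 of the 34 entries would be called in PPC + S (a mean change over 1.6-fold with an adjusted p under 0.05), 14 higher and 8 lower, beside 3.41%, 1.34% and 2.07% of all probes. All 4 fish had the same direction for 32 entries, beside 38.4% of probes. The study had listed the entries for their change in these same fish, so nothing is read from these counts. Measured with the dyes as stated, the medians were 0.24 and -0.37. In the other diets the medians of both lists lay near the pool. They were -0.12 and -0.08 for CG + S, -0.04 and -0.18 for HBM + S, 0.01 and 0.01 for RSM + S, and 0 and -0.10 for SFM + S. Single entries lay farther away. Means on the IFN-dependent list reached -2.76 in SFM + S and 0.91 in HBM + S, and those on the inflammatory list -0.62 and 0.39, both in HBM + S.

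**Figure D1:**
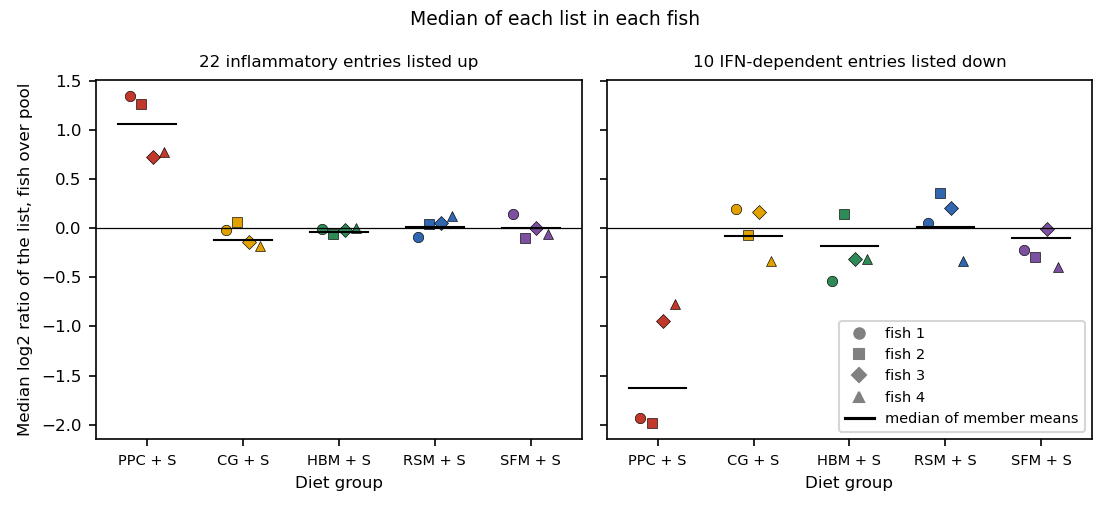
Median log2 ratio of fish over pool (y axis) of the 22 inflammatory entries listed up (left) and the 10 IFN-dependent entries listed down (right) in each of 4 fish on 5 diets (x axis), with the median of the entries' means as a line. The 4 PPC + S fish, which chose the entries, lie between 0.72 and 1.34 on the left and between -1.98 and -0.77 on the right. The nearest other fish are SFM + S fish 1 at 0.14 on the left and HBM + S fish 1 at -0.54 on the right.

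Set against the 16 fish of the other diets, the 4 PPC + S fish lay wholly above for 9 of the 32 entries with a value on every array and wholly below for 2, beside 2.23% and 2.42% of 16745 probes with a value on all arrays. The 9 were interleukin-22, chemokine CK-1, C-C motif chemokine 19-1, the TNF decoy receptor, TNF receptor superfamily member 5, arachidonate 5-lipoxygenase-activating protein, annexin A5 and the alpha and epsilon inhibitors of NF-kappa-B. NF-kappa-B p100 subunit lay above too, with 15 other fish measured. The 2 below were C-C motif chemokine 21 and receptor-transporting protein 3. Gamma-interferon-inducible thiol reductase lay below too, with 3 PPC + S fish measured (highest -1.06) and 15 other fish (lowest -0.66). In 21 entries the PPC + S fish overlapped the others. Because PPC + S chose the entries, nothing is read from these counts.

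Of the 5 cytokines and chemokines, 4 were higher and 1 lower in PPC + S fish than in their pool. Interleukin-22, which in mammals acts on epithelial cells in barrier defence and repair, had log2 ratios of 3.02, 3.22, 1.27 and 2.12, a mean of 2.41 ± 0.90 (SD, n = 4). Its pool was dim, with a signal well above background on 3 of the 4 arrays, and the mean was 3.86 without the offset in the background correction and 4.83 by the scanner software's ratios. Chemokine CK-1, a salmonid CC chemokine, had 1.84, 2.38, 1.18 and 1.56, a mean 3.34-fold higher, and C-C motif chemokine 19-1, in mammals a ligand for CCR7 on T cells and dendritic cells, had 2.56, 1.68, 0.73 and 1.11, a mean 2.87-fold higher. For all 3 genes every PPC + S fish lay above every fish of the other diets. Interleukin-18, in mammals an inflammasome product that promotes interferon-gamma release, had 1.93, 1.64, -0.11 and 0.62. It was the 1 entry of 34 without the listed direction in every measured PPC + S fish, since fish 3 lay just below the pool. C-C motif chemokine 21, the other CCR7 ligand of mammals, went the opposite way to chemokine 19-1, with -1.52, -0.92, -0.94 and -0.44, a mean 1.94-fold lower than the pool. All its PPC + S fish lay below the 16 fish of the other diets. The means with the dyes as stated were 0.71 for interleukin-22, 0.76 for interleukin-18, 0.37 for CK-1, 0.60 for chemokine 19-1 and -0.26 for chemokine 21.

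Receptors and antagonists were higher in PPC + S fish for 6 of 6 entries. The TNF decoy receptor, which binds ligand without passing on a signal, had 2.74, 2.32, 1.44 and 1.59, a mean of 2.02 ± 0.61, or 4.06-fold higher than the pool. C-C chemokine receptor type 9, which in mammals directs lymphocytes to the gut, had 1.88, 1.30, 0.37 and 0.70. Interleukin-6 receptor subunit alpha, the ligand-binding chain, had 2.23, 1.32, 0.25 and 0.56. In both receptors fish 1 and 2 had more than 1 and fish 3 and 4 less than 1. Both inhibitors of interleukin-1 on the list were less changed: interleukin-1 receptor type II, a decoy, averaged 0.79 ± 0.34, and interleukin-1 receptor antagonist, which blocks the signalling receptor, averaged 0.63 ± 0.14. TNF receptor superfamily member 5, which is CD40 of antigen-presenting cells, averaged 0.67 ± 0.26. Interleukin-1 receptor antagonist and TNF receptor superfamily member 5 had folds of 1.55 and 1.59, under the limit of 1.6. Taken with the dyes as stated, the means were 0.51 for the TNF decoy receptor, 0.53 for receptor type 9, 0.68 for the interleukin-6 receptor, 0.23 for interleukin-1 receptor type II, -0.06 for its antagonist and 0.22 for TNF receptor superfamily member 5.

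Among the 5 entries for eicosanoids and annexins, annexin A1 had the largest spread between PPC + S fish of the 34, also with the dyes as stated. It is a phospholipid-binding protein that in mammals limits inflammation, and it had 0.64, 4.18, 2.53 and 2.54 in PPC + S, a mean of 2.47 ± 1.45 that was 1.90 without fish 2 and -0.06 with the dyes as stated. Fish 1, which had the largest change for 11 of the 22 inflammatory entries listed up, had the smallest here. Annexin A5 had 1.46, 1.41, 0.91 and 0.73, and annexin A2-A had 1.19, 1.22, 0.61 and 0.83, with SDs of 0.36 and 0.30. The annexins thus shared a direction but not an order of the fish. Arachidonate 5-lipoxygenase-activating protein, which presents arachidonic acid to the enzyme that starts leukotriene synthesis, had 1.96, 1.81, 0.78 and 0.89. Leukotriene b4 12-hydroxydehydrogenase, which inactivates leukotriene B4, had 1.21, 1.07, 1.40 and 0.56. Both of these mRNAs were higher, by means of 1.36 ± 0.61 and 1.06 ± 0.36. For arachidonate 5-lipoxygenase-activating protein the mean was 2.20 without the offset and 2.46 by the scanner software's ratios. Without turning, the means were 0.52 for it, 0.08 for the hydroxydehydrogenase, 0.24 for annexin A2-A and 0.31 for annexin A5.

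Signalling proteins and transcription factors gave 7 of 7 entries above the pool, with means between 0.61 and 1.09. Among the 7 the 3 NF-kappa-B entries varied least between fish after turning. NF-kappa-B inhibitor alpha, which holds NF-kappa-B in the cytoplasm, had 0.66, 0.71, 0.70 and 0.69, with an SD of 0.02. Unturned, it had an SD of 0.80, beside 0.78 for transcription factor AP-1, and p100 had 1.15 beside 1.14 for jun-B. The order of the 7 by spread thus rests on the turning. NF-kappa-B p100 subunit, the precursor of p52 in the non-canonical pathway, had 1.09, 0.96, 0.99 and 0.94. NF-kappa-B inhibitor epsilon had 0.92, 1.05, 0.71 and 0.72. All 3 lay above every measured fish of the other diets. Suppressor of cytokine signaling 1, which blocks Jak kinases, had 1.23, 1.23, 0.63 and 1.19. CCAAT/enhancer binding protein beta-2, a transcription factor of acute-phase and myeloid genes in mammals, had 2.02, 1.32, 0.34 and 0.67. After turning its fish thus spread far more than those of NF-kappa-B. Transcription factor AP-1 and jun-B, of the Jun and Fos dimers that drive stress-response genes, averaged 0.61 ± 0.31 and 0.96 ± 0.39. With the dyes as stated the means of the 7 were 0 for inhibitor alpha, 0.03 for p100, 0.14 for inhibitor epsilon, 0.16 for suppressor of cytokine signaling 1, 0.58 for CCAAT/enhancer binding protein beta-2, 0.01 for AP-1 and 0.24 for jun-B. Counted over all inflammatory entries listed up, 19 of 22 means were over 1.6-fold.

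**Figure D2:**
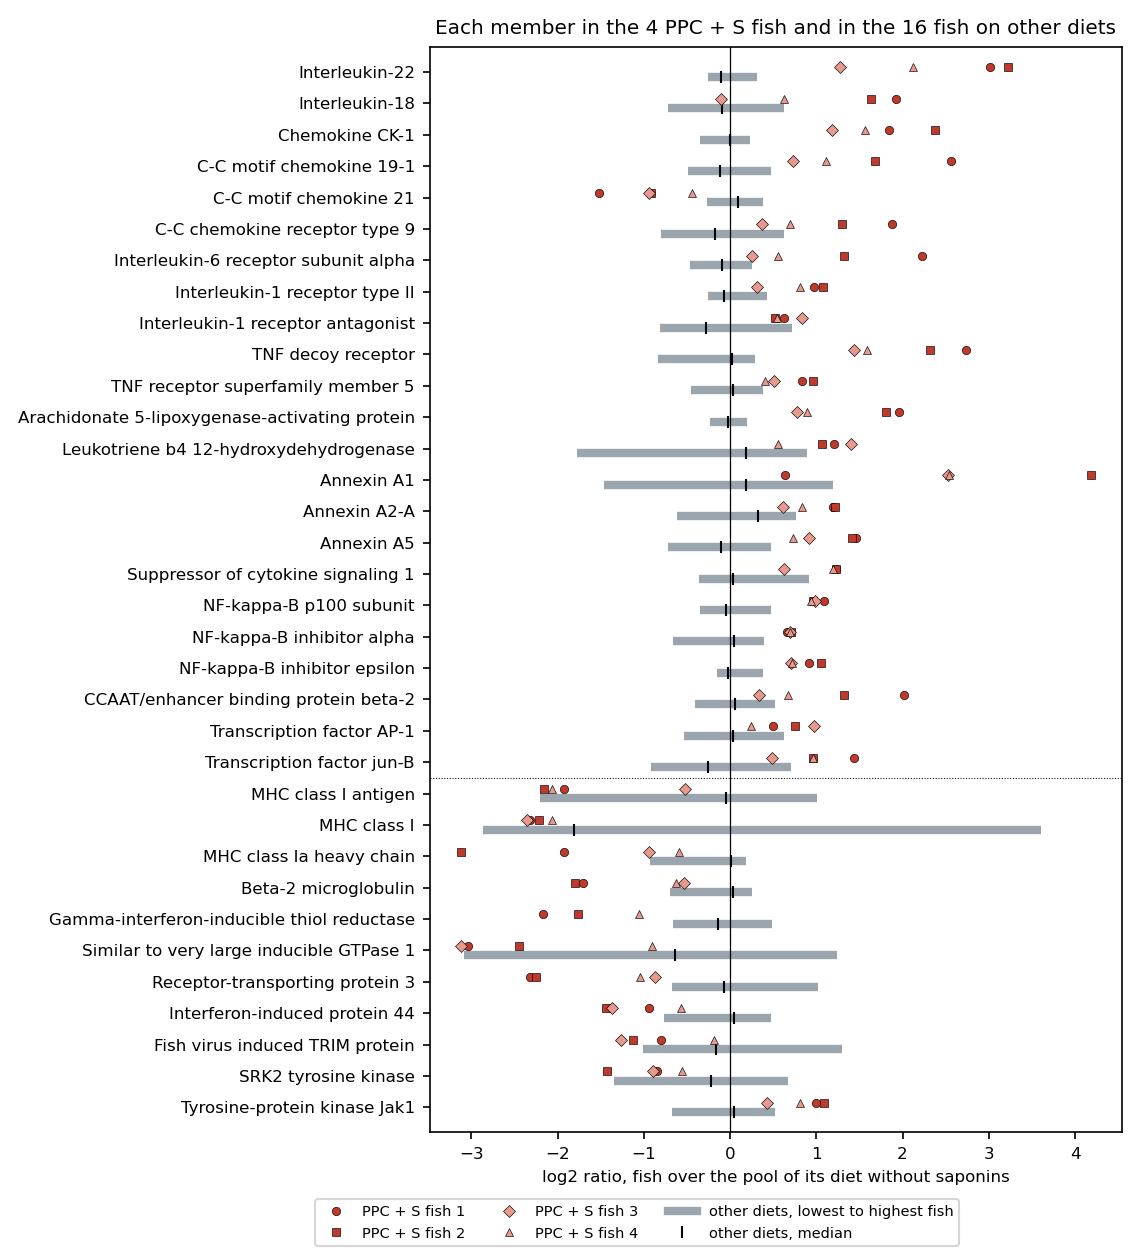
Log2 ratio of fish over pool (x axis) for each of the 34 entries (y axis, inflammatory above the dotted line and IFN-dependent below), with the 4 PPC + S fish as red symbols and the lowest, median and highest fish of the other 4 diets as a grey bar with a tick. MHC class I and similar to very large inducible GTPase 1 have the widest grey bars, and NF-kappa-B inhibitor alpha has the tightest red symbols, after turning of arrays 3 and 4.

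The class I antigen presentation entries were all lower in PPC + S fish than in their pool. The entry named MHC class I had -2.32, -2.21, -2.35 and -2.07, a mean of -2.24 ± 0.13. The fish channel was well above background on 2 of these 4 arrays only, and the mean was -3.93 without the offset and -4.94 by the scanner software's ratios. MHC class I antigen had -1.92, -2.16, -0.52 and -2.06, so that fish 3 stood apart from the others. MHC class Ia heavy chain had -1.93, -3.12, -0.94 and -0.59, and beta-2 microglobulin, the light chain of the same complex, had -1.70, -1.80, -0.53 and -0.63. In the last pair fish 1 and 2 were lower than fish 3 and 4 without overlap. The MHC class I entry did not show this split, but its fish channel was near background, so its spread cannot be compared with theirs. Without turning, the means were -0.03 for MHC class I, -0.37 for MHC class I antigen, -0.88 for the MHC class Ia heavy chain and -0.58 for beta-2 microglobulin.

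Of the 7 other IFN-dependent entries, 6 were lower and 1 higher in PPC + S fish. Similar to very large inducible GTPase 1, a relative of a large GTPase that interferon induces in mice, had -3.04, -2.45, -3.12 and -0.90, a mean of -2.38 ± 1.03, or 5.20-fold lower than the pool. Gamma-interferon-inducible thiol reductase, which reduces disulphide bonds of antigens in the endosome, had -2.17, -1.76 and -1.06 in fish 1, 2 and 4, and fish 3 had no value after spots with an outlier flag were removed. Receptor-transporting protein 3, whose family in mammals includes an interferon-induced antiviral member, had -2.32, -2.25, -0.87 and -1.05, all below the 16 fish of the other diets. Interferon-induced protein 44 averaged -1.08 ± 0.40. The fish virus induced TRIM protein, of a family of ubiquitin ligases, averaged -0.85 ± 0.48, and SRK2 tyrosine kinase, named after a Src-type kinase, averaged -0.93 ± 0.36. Tyrosine-protein kinase Jak1, which transmits interferon and interleukin signals, was the exception, with 1.00, 1.09, 0.43 and 0.81. Unturned, the means were -0.37 for the GTPase, -0.96 for the thiol reductase, -0.66 for receptor-transporting protein 3, -0.11 for interferon-induced protein 44, -0.12 for the TRIM protein, -0.21 for SRK2 and 0.21 for Jak1. All 10 IFN-dependent entries listed down had means over 1.6-fold. Of 17042 probes with a value in every PPC + S fish, 774 were over 1.6-fold lower. The study listed only changes of that size, so nothing is read from this count either.

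The size of the change differed between PPC + S fish. Fish 1 and 2 had the larger mean change for 19 of 22 inflammatory entries listed up, with a median difference from fish 3 and 4 of 0.48, beside 89.5% of all probes over 1.6-fold higher. They had it for 10 of 10 IFN-dependent entries listed down, with a median difference of -0.74, beside 91.7% of probes over 1.6-fold lower and 62% of all probes. For gamma-interferon-inducible thiol reductase fish 4 alone stood for the second pair. In 15 of the 22 and 3 of the 10 both fish of the first pair lay beyond both of the second, beside 73.4% and 78% of the probes over 1.6-fold and 40.8% of all. PPC + S chose the entries, and nothing is read from these counts. Interleukin-18, interleukin-6 receptor subunit alpha and interleukin-22 showed the split with differences of 1.53, 1.37 and 1.43, and MHC class Ia heavy chain with -1.75. NF-kappa-B inhibitor alpha, transcription factor AP-1 and MHC class I did not, with differences of -0.01, 0.02 and -0.05. For MHC class I the fish channel was near background, so a split could be hidden. Arrays 1 and 2 are those not turned and arrays 3 and 4 those turned, so fish and dye orientation cannot be told apart here. In the other diets the same differences of the lists lay between -0.15 and 0.24.

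**Figure D3:**
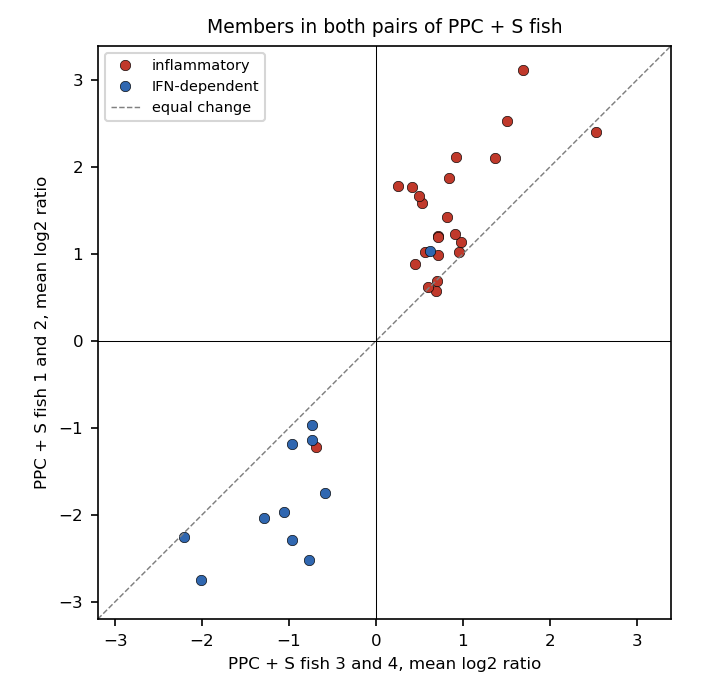
Mean log2 ratio of PPC + S fish 1 and 2 (y axis) against that of fish 3 and 4 (x axis) for each entry, inflammatory in red and IFN-dependent in blue, with a dashed line at equal change. For the inflammatory entries listed up 19 of 22 lie above the line, and the 10 IFN-dependent entries listed down lie below it.

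Entries that mark cell types, tied to probes by the same match and chosen by the study on the same fish, moved together with both lists. The 3 of 4 phagocyte markers that could be tied (cytochrome b558 alpha-subunit, cytochrome b-245 beta polypeptide and neutrophil cytosolic factor 1, but not myeloperoxidase) had medians of 3.33, 2.27, 0.15 and 1.03 in PPC + S fish 1 to 4. The 4 markers of T cells and antigen-presenting cells (T-cell receptor beta chain, CTLA4-like protein, CD86 and a T-cell immunoglobulin and mucin domain protein) had 1.14, 1.27, 0.63 and 0.60. The 6 enterocyte markers, among them intestinal fatty acid-binding protein, aquaporin-8 and lactase-phlorizin hydrolase, had -2.60, -2.74, -1.58 and -1.55. For each of the 3 marker lists the medians of fish 1 and 2 were the farther from the pool. Their mean was farther for 89.5% and 91.7% of all probes over 1.6-fold higher and lower. Single markers could differ: T-cell receptor beta chain had 2.15, 2.04, 2.74 and 0.86. Fish and dye orientation cannot be told apart here, and nothing about cell types is read from this split. In the other diets the medians of the markers' means lay between -0.15 and -0.02 for phagocytes, between -0.14 and 0.16 for T cells and antigen-presenting cells, and between -0.31 and 0 for enterocytes. Single enterocyte markers moved farther there: lactase-phlorizin hydrolase averaged -1.01 in SFM + S and -0.79 in HBM + S, and solute carrier family 15 member 1, the peptide transporter, -0.86 in SFM + S and -0.85 in CG + S. In whole tissue fewer cells of a type and less RNA per cell cannot be told apart, and the part of cell composition in the values of the 34 entries was not tested.

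Whether the same genes responded to saponins with the other plant proteins was tested on the 16 arrays that had no part in choosing them. An entry was called where its mean changed over 1.6-fold and its p, adjusted by Benjamini-Hochberg over all 17111 probes, was under 0.05. By limma, of the 34 entries none was called in CG + S, HBM + S or RSM + S and 1, MHC class I, in SFM + S, beside 0.0175%, 0.0117%, 0.0175% and 0.0117% of all probes. Without adjustment the counts past both limits were 0, 0, 0 and 2, beside 0.21%, 0.281%, 0.468% and 0.281%. At an unadjusted p under 0.05 with no fold limit they were 8, 4, 0 and 4, beside 5.26%, 5.16%, 5.54% and 3.3%. In the mean of the 4 diets no entry was called, beside 0.00584% of probes, and the smallest adjusted p was 0.464. The difference among the 4 diets gave none either, beside 0.0117%, with a smallest adjusted p of 0.94. Without adjustment and with the fold limit these 2 tests had 1 and 2 entries, beside 0.0935% and 0.999%, and at an unadjusted p under 0.05 alone 2 and 2, beside 7.7% and 5.01%. All 4 fish of a diet had the same direction for 7 entries with CG + S, 3 with HBM + S, 0 with RSM + S and 4 with SFM + S, beside 12.3%, 12.2%, 13% and 9.06% of probes. For HBM + S and SFM + S the tests average pairs of arrays that ran against each other after turning.

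In the mean of the 4 diets 32 of the 34 entries lay within 0.3 log2 of the pool. The share of all probes within that limit was not counted, so nothing particular to the entries is read from it. Interleukin-22, at 2.41 in PPC + S, lay between -0.26 and 0.31 in the 16 fish with a mean of -0.04. Its signal was dim there too, well above background on 2 to 3 of the 4 arrays of a diet in the fish and on 1 to 4 in the pool. The TNF decoy receptor averaged 0, chemokine CK-1 -0.07, C-C motif chemokine 19-1 -0.06 and arachidonate 5-lipoxygenase-activating protein -0.03. The last was dim in HBM + S, well above background on 2 of 4 arrays in either channel. Beta-2 microglobulin averaged -0.05 and the MHC class Ia heavy chain -0.14.

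Several inflammatory entries had small mean changes, opposite in sign to PPC + S, that did not pass the adjusted test. C-C chemokine receptor type 9 had -0.71, -0.75, -0.28 and -0.35 in CG + S (unadjusted p = 0.00266, limma adjusted p = 0.876). Transcription factor jun-B had -0.80, -0.38, -0.67 and -0.64 in HBM + S (unadjusted p = 0.000668, limma adjusted p = 0.656) and a mean of -0.51 in CG + S. Interleukin-1 receptor antagonist was below the pool on 12 of 16 arrays, with a mean of -0.27 over the 4 diets (limma adjusted p = 0.552). Annexin A1 in HBM + S had the sign it had in PPC + S, with 0.35, 0.49, 0.27 and 0.46 (unadjusted p = 0.00142, limma adjusted p = 0.667). None of these means over a whole diet or over the 4 diets reached the 1.6-fold limit. Among 136 means of an entry in a diet 6 did. They were those of MHC class I and of similar to very large inducible GTPase 1 in CG + S, HBM + S and SFM + S. How many means of all probes passed the fold limit alone was not counted.

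MHC class I in SFM + S was the call. Its log2 ratios were -2.86, -2.79, -2.80 and -2.61, a mean of -2.76 ± 0.11 (SD, n = 4; limma adjusted p = 0.000887). Fish and pool were flagged well above background on all 4 arrays. The fish levels (normalized log2 intensity) of 6.04 to 6.44 were still close to the lowest fish levels so flagged on those arrays, 5.88 to 5.97. The part of this floor in the small SD was not tested. The mean was -4.12 without the offset, -4.80 by the scanner software's ratios and -3.35 in the authors' processed values. By the methods' test the adjusted p was 0.135. With the dyes as stated the mean was -0.06 (limma adjusted p = 0.982). In 1 fit of the 16 arrays, which shares the spread of the 4 diets, the adjusted p was 1. The same entry had -1.77, 2.55, -1.85 and -1.87 in CG + S, -0.15, 0.05, 3.60 and 0.15 in HBM + S, and 1.26, 1.71, -2.38 and -2.28 in RSM + S. In CG + S and RSM + S its fish thus lay on both sides of the pool. In HBM + S fish and pool were each well above background on 1 of 4 arrays, so no side is read from the values near 0. Without fish 2 the CG + S mean was -1.83 (limma adjusted p = 0.022) and MHC class I was called there too, with the fish channel well above background on 2 of 4 arrays.

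The levels behind these ratios, as normalized log2 intensities, showed where the fish differed. In PPC + S the 4 fish had 5.83, 5.96, 5.77 and 5.99, against 8.15, 8.16, 8.12 and 8.06 for their pool. In SFM + S they had 6.44, 6.42, 6.04 and 6.24, against a pool mean of 9.05 ± 0.24 (SD over 4 arrays of 1 pool). Of the 20 fish 16 had levels between 5.77 and 6.44 and 4 had levels between 10.21 and 10.67, with none in the gap of 3.77 between them. The lowest fish level flagged well above background on an array was 5.57 to 6.12, so the 16 lay at or near the floor. The fish channel was well above background on 2 of 4 arrays in PPC + S, 2 in CG + S and 1 in HBM + S. A low level can thus be an absent signal. The 4 were CG + S fish 2, HBM + S fish 3 and RSM + S fish 1 and 2. Within the 16 fish of the other diets this gap was at percentile 100, as rounded, of all probes tested. The means of the pools differed as well, with 9.05 in SFM + S and 6.13 ± 0.50 in HBM + S, where each channel was well above background on 1 of 4 arrays. The HBM + S pool read 6.88 on the array of fish 3, against 5.78 at the lowest of the others. Levels of single channels are open to dye bias, and they were examined after the ratios had been seen.

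MHC class I antigen and similar to very large inducible GTPase 1 also had wide gaps between neighbouring levels. Within the 16 fish they were 0.93 (2 fish against 14) and 1.18, at percentiles 98.5 and 99.2. So did leukotriene b4 12-hydroxydehydrogenase (gap 0.91, percentile 98.4), with 3 fish between 6.51 and 6.85 and 17 between 7.76 and 9.31. For beta-2 microglobulin (gap percentile 99.9) 1 fish, CG + S fish 3, read 10.99, but its pool on the same array read 10.86. The gaps were not scaled by the spread. Within the 4 diets the SD was at percentile 99.6 for MHC class I antigen, 99.9 for the GTPase and 99.3 for the hydroxydehydrogenase. Separate groups of fish are thus not read from these gaps. Over all 20 fish MHC class I antigen was between 6.80 and 7.42 in 5 (PPC + S fish 1, 2 and 4, CG + S fish 2 and RSM + S fish 1) and between 8.05 and 10.27 in the other 15. That gap was 0.63, smaller than the 0.93 within the 16 fish, and its percentile was not measured. The pools of this entry had means between 8.98 and 9.67. CG + S fish 2 and RSM + S fish 1, 2 of the 4 fish with the high level of MHC class I, were thus among the fish with the low level of MHC class I antigen, with log2 ratios of -2.20 and -2.12. Similar to very large inducible GTPase 1 was between 10.30 and 11.71 in 11 fish and between 12.89 and 14.18 in 9, a gap of 1.18, with pool means between 13.01 and 14.10. Its log2 ratios were -2.39, 0.14, 0.07 and -3.02 on CG + S, 0.13, -1.13, -2.57 and 0.01 on HBM + S, 0.06, 1.24, 0.94 and -2.81 on RSM + S, and -2.11, -0.15, -2.30 and -3.08 on SFM + S. Low fish occurred in every diet, also in PPC + S, where 3 of 4 were low. The mean over the 4 other diets was -1.06 (unadjusted p = 0.00834, limma adjusted p = 0.464). For MHC class I, MHC class I antigen and the GTPase the pool SD was smaller after turning in 14 of 15 cases over the diets. The share over all probes was not counted, so nothing is read from this count.

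**Figure D4:**
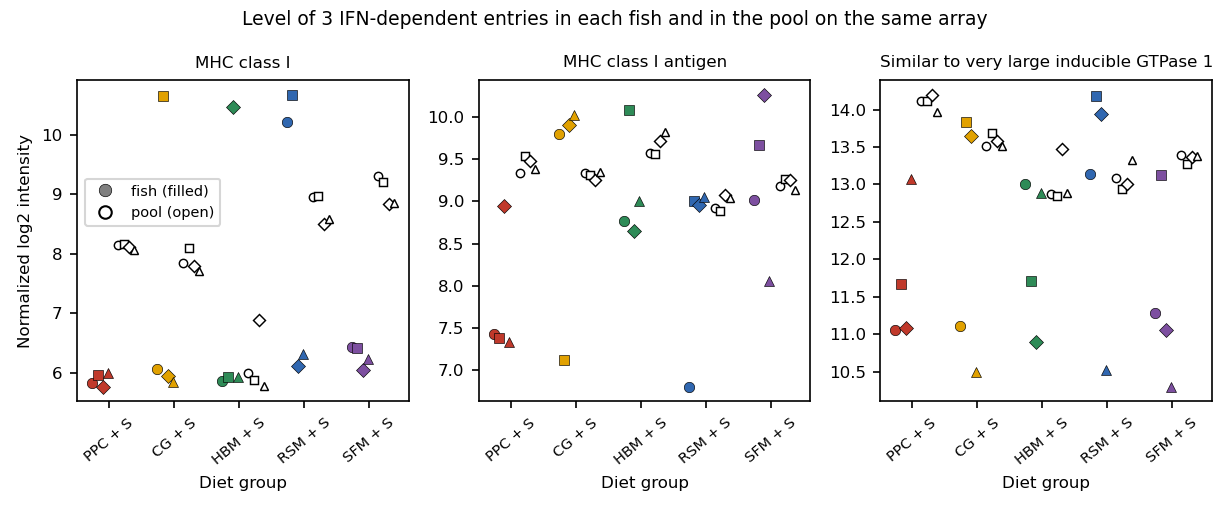
Normalized log2 intensity (y axis) of MHC class I, MHC class I antigen and similar to very large inducible GTPase 1 in each fish (filled) and in the pool on the same array (open, same symbol) for 5 diets (x axis). For MHC class I 16 fish lie at or below 6.44 and 4 at or above 10.21, and the HBM + S pool is highest on the array of the 1 high fish of that diet. The 16 lie at or near the lowest fish levels flagged well above background, 5.57 to 6.12 over the arrays.

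The IFN-dependent entries also varied more from fish to fish within the other diets than most probes did. The SD within the 4 diets had a median of 0.558 for the 10 IFN-dependent entries listed down and 0.304 for the 22 inflammatory entries listed up, beside 0.175 for all probes tested. Of the 34 entries 30 were above that median, and 7 of 11 IFN-dependent and 7 of 23 inflammatory entries were above the 90th percentile of all probes. MHC class I (SD 1.80), similar to very large inducible GTPase 1 (1.52) and MHC class I antigen (1.05) were the most variable. The MHC class Ia heavy chain (0.29) and beta-2 microglobulin (0.26) were at percentiles 78.7 and 73.1. Leukotriene b4 12-hydroxydehydrogenase was the most variable inflammatory entry (0.83, percentile 99.3), with -1.22, 0.79, -1.24 and 0.61 in RSM + S, followed by annexin A1 (0.67, percentile 98.5). With the dyes as stated the medians were 0.551 and 0.25, beside 0.141, with 32 of 34 entries above that median and again 7 and 7 above the 90th percentile. MHC class I (2.09), the GTPase (1.97) and MHC class I antigen (0.99) were again the most variable. The cytokines and chemokines had a median SD of 0.23 and the receptors and antagonists of 0.281. Differences between fish and between arrays both enter these SDs, and their parts were not tested. The entries were chosen for a change over 1.6-fold in PPC + S. The spread of other probes with such a change was not measured, so nothing particular to the entries is read from these SDs.

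**Figure D5:**
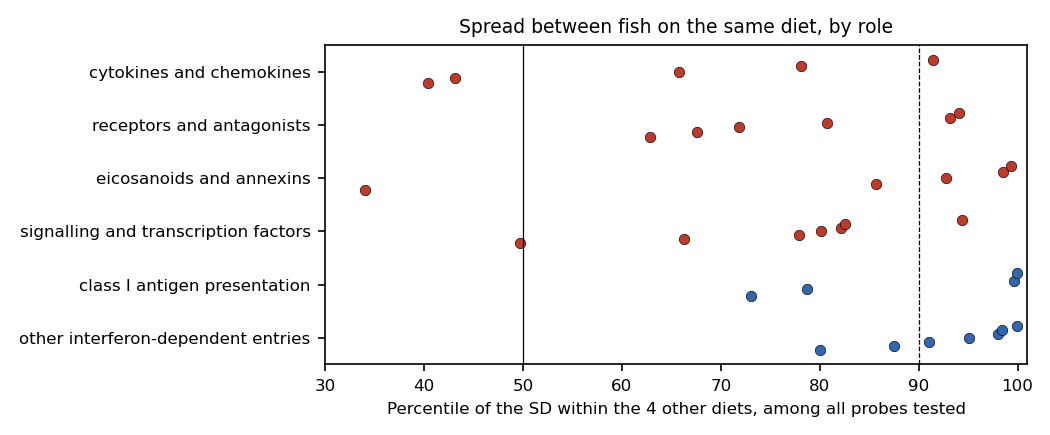
Percentile among all probes tested of the SD within the 4 diets other than PPC + S (x axis) for each entry, by role (y axis), inflammatory in red and IFN-dependent in blue, with lines at the median and the 90th percentile. Of the 34 entries 30 lie right of the median, and MHC class I and similar to very large inducible GTPase 1 lie at 99.9, both after turning and with the dyes as stated.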

How the data were processed

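Per the file headers the authors extracted the arrays with Feature Extraction 10.7.1.1 (9.6.1 per the submitters' processing notes). They deposited median intensities of spots and of the local background in 2 colours, not yet normalized, and log10 ratios that the same program had corrected for background and dye. Their series-wide table holds log2 ratios after Lowess normalization, and no columns of the authors' own comparisons.

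Flagged outlier spots (2.0% to 3.8% on an array) were removed, background was corrected with normexp (offset 50), ratios were loess-normalized, and both spots of each probe averaged. Probes entered the tests if fish or pool was well above background on 3 of the 4 arrays of a diet. Array direction came from correlation with the authors' values over 17348 spots (r of 0.51 to 0.88 in size). The best column was of the same diet for 20 of 20 arrays and of the same fish number for 8.

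Diets were fitted singly with limma (version 3.58.1; R 4.3.3, data.table version 1.17.8), and the 16 arrays of the 4 other diets together for their mean and difference. The procedure was tested on simulated data of 16745 probes. Of 100 probes changed by a log2 of 1 it recovered 83% for CG + S, 74% for HBM + S, 87% for RSM + S, 78% for SFM + S, 99% for the mean and 85% for the difference. Unchanged probes called numbered 20 for the difference and 0 to 4 for the rest. The changed probes were drawn at random from all probes, whose median SD was 0.175. Recovery was not measured for the inflammatory entries listed up, with a median SD of 0.304, or the IFN-dependent entries listed down, with 0.558. Values were drawn independently for each array, without the link between fish of the same number given next. Fish with the same number deviated together across diets (r of 0.14 to 0.62 in all 24 pairs, against -0.55 to 0.51 in 72 pairs of different numbers), which counts as pairing by the rule that every pair's r exceeds 0.1. The number also fixes the dye orientation. All arrays were scanned on 1 day. Python 3.11.15 with matplotlib 3.10.9 drew the figures.

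The entries, roles and marker lists were chosen with earlier results of these data known. All entries are named. Values in each fish are given for entries called in the 4 other diets, for the 3 largest rises and falls of each group in PPC + S, for the largest and smallest spread, and for complexes and families. None of the 21322 probe identifiers was among 274889 accessions and IDs of RefSeq (assembly Ssal_v3.1), so other genes of the pathways and probe sequences were not analysed here. Alternatives concerned background, normalization, array direction, filter, test, fit, dye, each fish and each pair of arrays.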

Additional observations from a re-analysis of the deposited data

Results flagged for a closer look

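Within a diet, 1 fish stood apart from the other 3 by Dixon's criterion in 15 cases, which came from 11 different fish. There were 170 groups of 4 (34 entries in 5 diets), 3 of them with a missing value and not examined, and chance gives about 1 in 20 for normal values. The share over all probes was not counted, so nothing particular to these entries is read from the counts. Of the 15 cases, 9 concerned the class I complex. For MHC class I they were CG + S fish 2 at 2.55 and HBM + S fish 3 at 3.60. For MHC class I antigen they were PPC + S fish 3 at -0.52, CG + S fish 2 at -2.20, HBM + S fish 2 at 0.54 and RSM + S fish 1 at -2.12. For MHC class Ia heavy chain they were CG + S fish 2 at -0.63, RSM + S fish 4 at -0.23 and SFM + S fish 4 at -0.17. CG + S fish 2 thus stood apart for all 3 heavy chain entries. The other IFN-dependent entry was Jak1 in HBM + S fish 1 at -0.67. Among inflammatory entries they were suppressor of cytokine signaling 1 in PPC + S fish 3 at 0.63, the TNF decoy receptor in CG + S fish 3 at -0.83, chemokine CK-1 in HBM + S fish 4 at -0.16, NF-kappa-B inhibitor epsilon in HBM + S fish 1 at 0.38 and C-C motif chemokine 21 in RSM + S fish 2 at 0.23.

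In 9 cases all 4 PPC + S fish moved one way and all 4 fish of another diet the other way. The difference of the mean log2 changes, PPC + S minus the other diet, was 2.56 for interleukin-22, 1.58 for C-C chemokine receptor type 9, 0.96 for interleukin-1 receptor antagonist, 1.49 for annexin A5, 0.84 for transcription factor AP-1 and 1.47 for jun-B against CG + S. It was 1.68 for C-C motif chemokine 19-1 and 1.58 for jun-B against HBM + S, and 1.00 for Jak1 against SFM + S. Of the entries these were 6 against CG + S, 2 against HBM + S and 1 against SFM + S, beside 3.25%, 1.74% and 1.37% of all probes with a value in every fish. PPC + S chose these entries, and the differences were not tested.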

How the results depend on the processing

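Single entries in PPC + S were the same within 1 SD in 322 cases, moved by more in 49 and changed sign in 3, all 3 with the dyes as stated (interleukin-1 receptor antagonist -0.06, annexin A1 -0.06 and NF-kappa-B inhibitor alpha 0). Leaving out 1 fish, or keeping 1 pair of arrays, cannot move a mean of 4 fish by 1 SD. For entries with a value in all 4 fish those cases were thus the same in advance, and nothing is read from the 322. With the dyes as stated the list medians were 0.24 and -0.37. They were 0.72 and -0.97 on arrays 3 and 4 alone, a pair chosen after seeing the data, and 0.86 to 1.21 and -1.77 to -1.28 with each fish left out. Interleukin-22 in PPC + S was 3.86 with a normexp offset of 0 and 4.83 by the scanner software's ratios, and MHC class I was -3.93 and -4.94. The SFM + S count of 1 was 0 with the dyes as stated, with only probes well above background on all arrays, by the methods' t-test after Benjamini-Hochberg adjustment, in 1 fit of 16 arrays, and on arrays 1 and 2 or arrays 3 and 4 alone. By the methods' t-test without adjustment it stayed 1. Without adjustment of limma's p it was 2 in SFM + S (similar to very large inducible GTPase 1 added), 1 in the mean of the 4 diets (similar to very large inducible GTPase 1) and 2 for their difference (jun-B and MHC class I). The CG + S count was 0 to 1 with each fish left out, 1 without fish 2 (MHC class I). On arrays 3 and 4 alone it was 1 in HBM + S (MHC class I antigen) and 1 in the mean (MHC class I). For MHC class I in SFM + S adjusted p was 0.007 to 0.0329 with each fish left out, 3.13e-05 to 0.0146 under other backgrounds and normalizations, 0.135 by the adjusted t-test, and 0.0846 and 0.0515 on arrays 1 and 2 and on arrays 3 and 4. The filter on all arrays left it no value. The replicate block by fish number gave 0 entries in the mean and 0 for the difference and changed no call.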
